A study of Homo sapiens with 6 samples.

Results

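Solute carriers were taken here as every transcription start site (TSS) whose gene name begins with SLC followed by a digit or the letter O. Carriers with other symbols were not counted as members. Of the 3000 TSSs with deposited density profiles, 43 met this rule, from 23 families, counting SLCO, which has a letter in place of a number. The larger list of 9944 TSSs held 131 such names, so 32.8% of the SLC names had a profile, against 30.2% of all listed TSSs. The profiles cover the most transcribed genes, ranked by BrU-seq, which labels newly made RNA, in the gene bodies of WT cells. Of the 88 SLC names without a profile, 30 had no BrU-seq value, and the other 58 had values up to 0.686, below the lowest value among the profiled TSSs (0.693). Among the 131 listed names, having a profile thus went with the BrU-seq value and with its presence. What placed a TSS on the larger list was not examined, so a carrier absent here need not be untranscribed. By the GENCODE annotation 41 of the 43 are protein coding. SLCO4A1-AS1 is a long non-coding RNA, antisense within an intron of SLCO4A1. SLC35E2 is annotated as a pseudogene (SLC35E2A), its listed start lies 6.43 kb from the nearest annotated start of that gene, and it has a near-identical copy, so its values are uncertain.

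The cells were of the human line RPE1, immortalised cells from the pigment epithelium of the retina, and in both groups a derivative labelled iCas9 p53/puro-dKO, which lacks p53. WT cells (3 libraries, untreated) carried no TY tag, so their anti-TY signal measures what the antibody recovers without its target. The TY-CFAP20 group (3 libraries, untreated) was knocked out for CFAP20, a protein known from cilia whose nuclear functions the study addresses, and expressed a TY-tagged copy. The promoter that drives TY-CFAP20, and whether the line is a single clone, are not given in the sources used here. Chromatin crosslinked with DSG and formaldehyde was precipitated with 5.7 µg of TY antibody, from 84 µg of chromatin with 74 ng of Drosophila spike-in in WT and from 60 µg with 53 ng in TY-CFAP20. The groups thus differ in the tag, in CFAP20 deletion and in input, and these cannot be told apart. Only group averages were deposited. They carry no replicate error, n or p-value, and each difference given here sets 1 average against another. The deposited values move in steps of several sizes. Divided by the largest and by the smallest step, the mean SLC density stood for 8.28 or 34.3 fragments per position in WT, and for 14.2 or 33.4 in TY-CFAP20. These are bounds on 1 mean, and members of low density rest on fewer fragments. Library totals are unknown. Of the pigment epithelium markers in the TSS list, OTX2 had a BrU-seq level of 10.0, MITF 1.40 and RLBP1 0.235, and RPE65 and TTR had no value. Of the markers of other lineages, CD3E had no value, ALB, the liver's albumin, had 0.0192 and SFTPB, of lung, had 0.852.

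Solute carriers move ions, metals, sugars, amino acids, nucleotides, vitamins and lipids across the plasma membrane and across the membranes of mitochondria, lysosomes and the Golgi. They work as exchangers, cotransporters or facilitators and do not hydrolyse ATP for transport. Families are numbered by sequence, so that members of 1 family usually carry related substrates, while different families need not be related. In pigment epithelium they supply the photoreceptors with glucose, ions and amino acids.

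CpG content was low at 6 of the 7 smallest SLC differences but followed the difference only weakly among the CpG-rich members, as given below. The promoters of the 3 SLC genes with the largest TY-CFAP20 minus WT difference, and of the gene with the smallest, are shown. Each runs from 250 bp upstream to 49 bp downstream of the listed TSS in hg38, 5′ to 3′ along the gene, read from the reference genome, with CG dinucleotides in capitals. SLC22A5 encodes a carnitine transporter (chr5:132369502-132369801, plus strand), SLC39A13 a zinc transporter of the secretory pathway (chr11:47408381-47408680, plus strand), SLC35G1 a member of the SLC35 family (chr10:93893723-93894022, plus strand) and SLC23A3 an orphan member of the ascorbate transporter family (chr2:219169983-219170282, minus strand).
SLC22A5: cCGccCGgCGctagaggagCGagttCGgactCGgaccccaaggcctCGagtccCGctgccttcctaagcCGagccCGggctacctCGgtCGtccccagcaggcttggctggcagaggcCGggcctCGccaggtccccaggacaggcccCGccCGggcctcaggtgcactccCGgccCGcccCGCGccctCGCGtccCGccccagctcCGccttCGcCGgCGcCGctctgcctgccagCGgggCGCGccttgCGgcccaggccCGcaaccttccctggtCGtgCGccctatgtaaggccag
SLC39A13: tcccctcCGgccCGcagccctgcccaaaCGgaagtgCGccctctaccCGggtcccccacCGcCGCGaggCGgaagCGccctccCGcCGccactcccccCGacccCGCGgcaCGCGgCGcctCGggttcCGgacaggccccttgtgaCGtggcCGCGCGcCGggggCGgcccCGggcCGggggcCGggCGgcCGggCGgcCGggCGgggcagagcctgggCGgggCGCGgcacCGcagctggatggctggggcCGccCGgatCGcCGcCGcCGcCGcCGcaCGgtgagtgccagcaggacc
SLC35G1: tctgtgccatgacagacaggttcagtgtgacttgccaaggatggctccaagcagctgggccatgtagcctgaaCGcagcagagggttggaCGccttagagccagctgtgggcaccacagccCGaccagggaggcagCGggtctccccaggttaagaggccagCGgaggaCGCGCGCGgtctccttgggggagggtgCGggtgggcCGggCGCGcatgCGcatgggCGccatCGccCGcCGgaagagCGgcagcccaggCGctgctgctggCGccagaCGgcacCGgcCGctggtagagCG
SLC23A3: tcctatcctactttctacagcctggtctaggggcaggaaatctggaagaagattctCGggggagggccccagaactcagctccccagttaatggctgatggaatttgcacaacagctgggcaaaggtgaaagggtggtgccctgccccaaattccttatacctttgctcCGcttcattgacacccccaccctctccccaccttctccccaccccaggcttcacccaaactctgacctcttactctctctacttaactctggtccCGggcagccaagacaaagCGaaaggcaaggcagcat
The 300 bp of SLC22A5 held 35 CG dinucleotides, those of SLC39A13 47, those of SLC35G1 25 and those of SLC23A3 4. All 4 listed starts lie in an exon of their own gene. The start of SLC22A5 also lies in an intron of MIR3936HG, which is transcribed the other way, and that of SLC39A13 in an intron of SLC39A13-AS1.

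TY-CFAP20 density was higher than WT density at most SLC start sites, by about as much as at other start sites. Over the 43 SLC TSSs, read density normalised to the spike-in averaged 1.42 in TY-CFAP20 between -500 and 500 bp. WT averaged 0.801, which gives a ratio of 1.77, against 1.71 over all 3000 TSSs. In the flanks, the outermost 1 kb on each side of the window, the SLC means were 0.756 and 0.645, a ratio of 1.17 (1.14 over all). The TSS ratio was therefore 1.51 times the flank ratio for SLC TSSs and 1.497 times for all. The median difference, TY-CFAP20 minus WT, was 0.603 over SLC TSSs, with quartiles of 0.292 and 1.01, and 0.571 over all TSSs, with quartiles of 0.267 and 0.846. The quartiles describe the spread between genes, not an error. Which of these medians was higher depended on the measure. Within 250 bp of the TSS the SLC median was 0.650 and that of all TSSs 0.685. For local scaling, each TY-CFAP20 value was divided by the flank ratio of 11 neighbouring TSSs, the TSS itself included. The medians were then 0.344 and 0.389.

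Density in TY-CFAP20 exceeded that in WT at 40 of the 43 SLC TSSs, where 91.2% of all TSSs did so. To compare folds, 0.668 (the WT flank median of all TSSs) was added to each density as a pseudocount. On this scale 18 of the 43 (41.9%) passed a threshold of 1.5-fold in favour of TY-CFAP20, and 34.9% of all TSSs did. The count was 20 within 250 bp, where 47.1% of all TSSs passed, and 7 with local scaling, where 17.5% did. SLC2A10 was just inside this threshold (1.515-fold) and SLC38A6 just outside (1.486-fold). At 2-fold, SLC22A5 alone passed on the pseudocount scale, where 1.77% of all TSSs did. No SLC TSS was 1.5-fold lower on that scale, against 0.133% of all. The pseudocount draws every ratio towards 1. Without it the median ratio was 1.82 over SLC TSSs and 1.71 over all, and that of SLC19A1 was 0.663. With local scaling 39 of the 43 were above 0, against 87.6% of all TSSs. Among them SLC35B4 had turned from below 0, while SLC2A3 and SLC38A7 had turned to below 0. These shares lie near the background and single out no property of SLC genes as a group. The spread among members, from -0.184 to 1.38, was much wider than the gap between SLC and all TSSs.

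**Figure D1:**
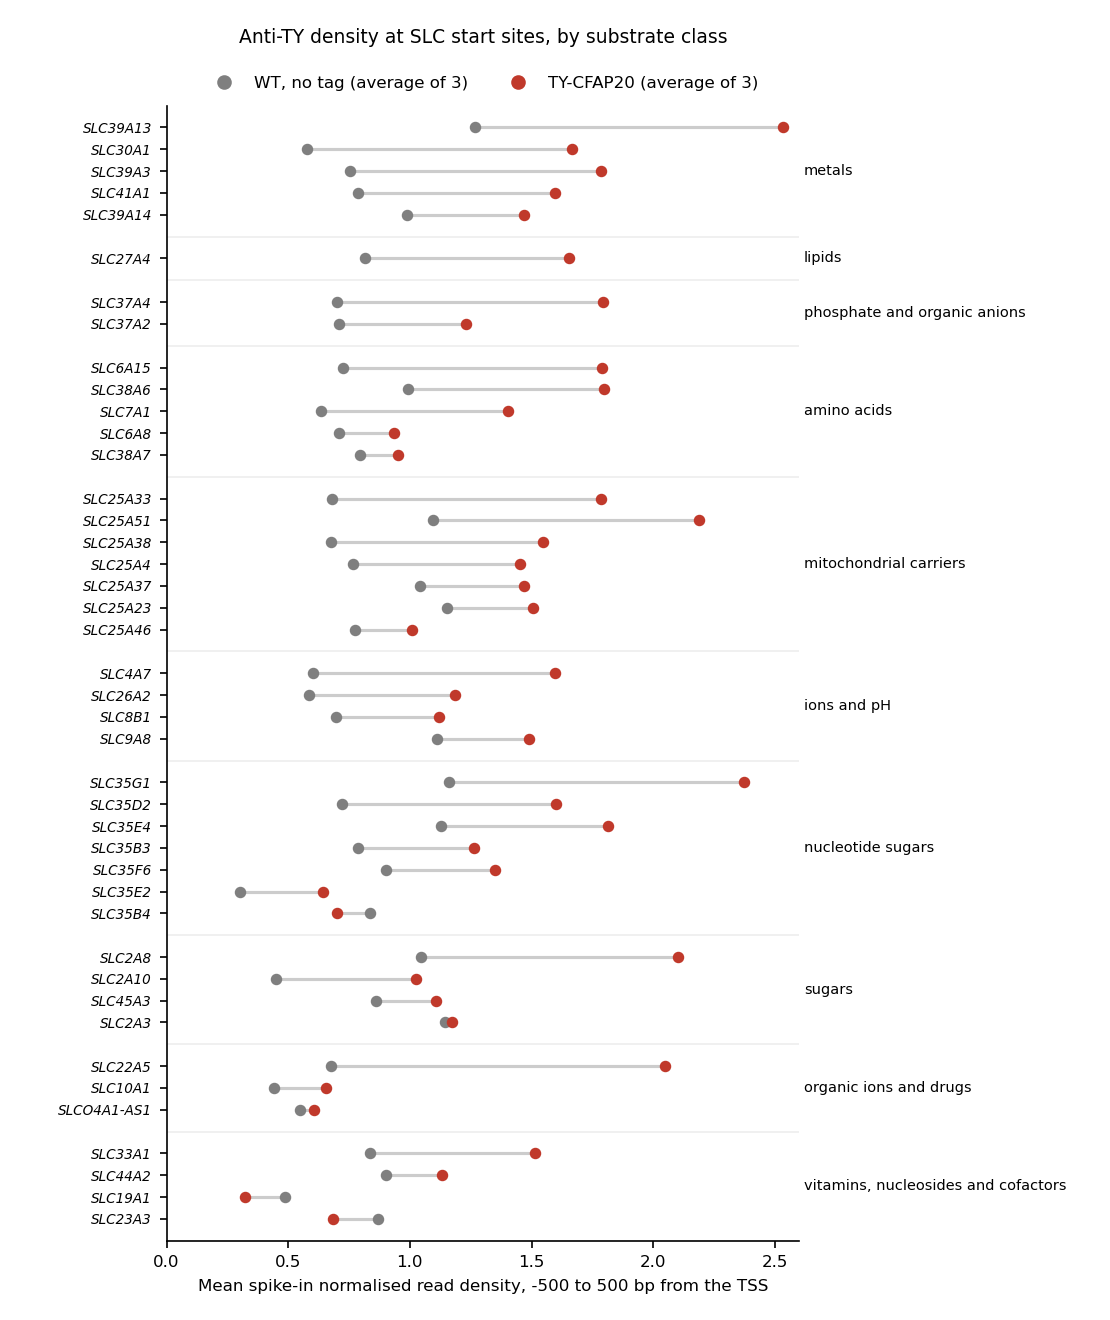
Mean spike-in normalised density from -500 to 500 bp (x axis) at 42 of the 43 SLC start sites, grouped by substrate class, in WT (grey) and TY-CFAP20 (red), each dot the authors' average of 3 libraries and each line the difference. The red dot lies left of the grey one only at SLC35B4, SLC19A1 and SLC23A3.

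Transporters of metals had the highest class median. The 5 members had a median difference of 1.03, and 4 of them passed 1.5-fold, where 34.9% of all TSSs did. The counts of the classes below stand beside this same share. Each class holds few genes, so the counts show no property of a class. SLC39A13 stood at 1.27 in WT and 2.53 in TY-CFAP20, the highest TY-CFAP20 density of any SLC TSS. SLC30A1 encodes ZnT1, which exports zinc from the cell. It stood at 0.576 in WT and 1.67 in TY-CFAP20, and its log2 ratio of 0.91 was the second highest among SLC genes. The zinc importer gene SLC39A3 had 0.756 and 1.79, and SLC41A1, for a magnesium transporter, 0.786 and 1.60. SLC39A14, which carries zinc, manganese and iron into the cell, had the smallest difference of the class, at 0.989 and 1.47, with the class's lowest TY-CFAP20 density and a WT density above all but that of SLC39A13. These genes also had high BrU-seq levels, with a class median of 12.5 against 2.41 over SLC TSSs. The part of transcription in their differences was not tested. Under local scaling the class median was 0.597.

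Carriers of the mitochondria differed widely among themselves. The 7 members of family 25, most of which exchange metabolites across the inner mitochondrial membrane, had a median difference of 0.686, and 3 passed 1.5-fold. SLC25A33, a carrier of pyrimidine nucleotides, stood at 0.680 in WT and 1.79 in TY-CFAP20. The mitochondrial NAD carrier gene SLC25A51 had 1.10 and 2.19, and SLC25A38, which supplies glycine for haem synthesis, 0.675 and 1.55. SLC25A4, an ADP/ATP exchanger, had 0.767 and 1.45. Below these came the iron importer gene SLC25A37 (1.04 and 1.47) and SLC25A23, for a calcium-dependent ATP-Mg/phosphate carrier (1.15 and 1.51). Both had WT densities above the SLC upper quartile of 0.946, as did SLC25A51 with its larger difference. SLC25A46, which sits in the outer membrane and acts in mitochondrial dynamics, was lowest, at 0.777 and 1.01. Within 250 bp its difference was -0.0967, so that its direction depended on the window.

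Genes for ion and pH regulation had a median of 0.603, and 2 of 5 passed 1.5-fold. SLC4A7, a sodium bicarbonate cotransporter gene, stood at 0.603 in WT and 1.60 in TY-CFAP20. The sulphate transporter gene SLC26A2 had 0.585 and 1.19, and SLC8B1, the mitochondrial sodium/calcium exchanger, 0.695 and 1.12. SLC9A8, an exchanger of the Golgi and endosomes, had 1.11 and 1.49, and within 250 bp its difference was -0.0455. The last of these had the smallest difference of the class, 0.380, and the highest WT density of these 4 genes.

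Amino acid carriers, counted with all of family 6, had a median of 0.772, and 2 of 5 passed. SLC6A15, a neutral amino acid transporter best known from neurons, stood at 0.725 in WT and 1.79 in TY-CFAP20, although its BrU-seq level of 0.735 was the lowest of all SLC members. SLC38A6 had 0.992 and 1.80, and SLC7A1, which takes up arginine and lysine, 0.634 and 1.41. SLC38A7, for a glutamine transporter of lysosomes, had 0.796 and 0.952, and under local scaling its difference was -0.07. SLC6A8, the creatine transporter gene on chromosome X, had 0.710 and 0.936. It lay in a stretch of at least 5 neighbouring TSSs whose flank ratio was below 0.75 of the median (flanks of 0.903 in WT and 0.696 in TY-CFAP20), and under local scaling its difference was 0.602. From 0 to 1000 bp it was -0.0131. Of the 43 members, 3 lay in such low stretches (6.98%, against 7.43% of all TSSs). Copy number or another property of these stretches was not tested.

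In family 35, which moves nucleotide sugars into the Golgi and endoplasmic reticulum and has several members of unknown substrate, the median was 0.476 and 2 of 7 passed. SLC35G1 stood at 1.16 in WT and 2.37 in TY-CFAP20. Its flanks were the highest in WT among SLC TSSs, at 1.10, with 1.19 in TY-CFAP20, and it is the only member on chromosome 10. SLC35D2 had 0.720 and 1.60. Intermediate values were found at SLC35E4 (1.13 and 1.81), SLC35B3, which carries the sulphate donor PAPS (0.786 and 1.26), and SLC35F6 (0.901 and 1.35). SLC35E2, uncertain as said, had the lowest WT density of the 43 (0.304) and 0.642 in TY-CFAP20. SLC35B4 was lower in TY-CFAP20, at 0.699 against 0.835 in WT. It lay in a low stretch on chromosome 7, with flanks of 0.352 in TY-CFAP20 and 0.549 in WT, and under local scaling its difference turned to 0.177.

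Sugar carriers split by gene, with a class median of 0.412 and 2 of 4 past 1.5-fold. SLC2A8, an intracellular glucose transporter, stood at 1.05 in WT and 2.10 in TY-CFAP20, and SLC2A10 at 0.450 and 1.03. SLC45A3, which is named for its expression in prostate as prostein, had 0.860 and 1.11. SLC2A3 encodes GLUT3, a high-affinity glucose transporter, and had 1.14 and 1.17. Its WT density was among the highest of SLC genes, and local scaling placed its difference at -0.04. Family 37 holds 2 members, which exchange sugar phosphates. SLC37A4, the glucose-6-phosphate carrier of the endoplasmic reticulum, had 0.699 and 1.80, and SLC37A2 had 0.711 and 1.23. From 0 to 1000 bp the difference of SLC37A2 was -0.07, so that its direction depended on the window. Scaled locally, SLC37A4 had the largest difference of all members, at 1.01. The single lipid carrier, the fatty acid transporter gene SLC27A4, had 0.815 and 1.65.

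The remaining classes, organic ions and vitamins, had the lowest class medians (0.215 and 0.03). Among organic ion carriers SLC22A5 had the largest difference of all 43, from 0.675 in WT to 2.05 in TY-CFAP20 (log2 ratio 1.02). SLC10A1, the bile acid importer of liver cells, had 0.442 and 0.657 (its BrU-seq level was 1.51, where that of ALB was 0.0192), and SLCO4A1-AS1 had 0.548 and 0.605, a difference that turned to -0.0184 when all flanks were scaled to WT. None of the 4 vitamin and cofactor carriers passed 1.5-fold. SLC33A1, which imports acetyl-CoA into the endoplasmic reticulum, had 0.834 and 1.52, and SLC44A2, of the choline transporter-like family, 0.903 and 1.13. SLC19A1, the reduced folate carrier gene on chromosome 21, was lower in TY-CFAP20, at 0.323 against 0.487. It lies in a low stretch, its difference with local scaling was -0.11, and from 0 to 1000 bp it turned to 0.145. SLC23A3 was lower too, at 0.685 against 0.868, outside any low stretch, and scaled locally it was at -0.29. Its difference was -0.00701 within 250 bp and -0.0327 from 0 to 1000 bp, where SLC35B4 was lower, at -0.26 and -0.25. The class median turned to -0.06 when the flanks of TY-CFAP20 were scaled to those of WT and to -0.00241 with local scaling, so that no direction can be given for this class. Of the 8 classes with 3 or more members, 4 had a median above that of all TSSs.

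CpG content followed these differences. The grouping by CpG ratio (observed over expected CG count, from -500 to 500 bp, with a threshold of 0.5) was chosen after the values were seen. The 6 members below 0.5 were SLC23A3 (0.0977), SLC10A1 (0.157), SLC19A1 (0.290), SLC2A3 (0.337), SLCO4A1-AS1 (0.398) and SLC38A7 (0.482). They made up 6 of the 7 smallest differences, and the other was SLC35B4. Their median difference was 0.04, against 0.686 at the 37 members with a ratio of 0.5 or more. In WT the medians of these groups were 0.672 and 0.777, and in TY-CFAP20 0.671 and 1.52. The CpG-poor members were thus set apart mainly by TY-CFAP20 density. None of the 6 passed 1.5-fold, where 7.38% of the 650 CpG-poor TSSs of the whole table did, and 18 of the 37 others did, against 42.6% of CpG-rich TSSs. Density was higher in TY-CFAP20 than in WT at 4 of the 6, against 75.7% of CpG-poor TSSs, and at 36 of the 37, against 95.5% of CpG-rich ones. The median differences over all TSSs were 0.187 and 0.665, so the separation was present throughout the table and is not particular to SLC genes. CpG-poor TSSs made up 13.95% of SLC TSSs and 21.7% of all. Across the 43 members Spearman's rho between CpG ratio and difference was 0.451, and across the 37 CpG-rich ones 0.155. These points share the libraries and their base composition, and GC content also went with the difference (rho 0.325 over the 43). Whether the recovery of GC-rich DNA contributes was not tested. SLC35B4, SLC6A8, SLC25A46 and SLC45A3, named after their values were seen, had CpG ratios between 0.773 and 0.909 and differences under 0.25, so that a high ratio did not always go with a large difference. SLC35B4 and SLC6A8 lie in low stretches. With local scaling SLC6A8 rose to 0.602, above the CpG-rich SLC median of 0.424. SLC35B4 (0.177), SLC25A46 (0.114) and SLC45A3 (0.0154) stayed below that median.

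**Figure D2:**
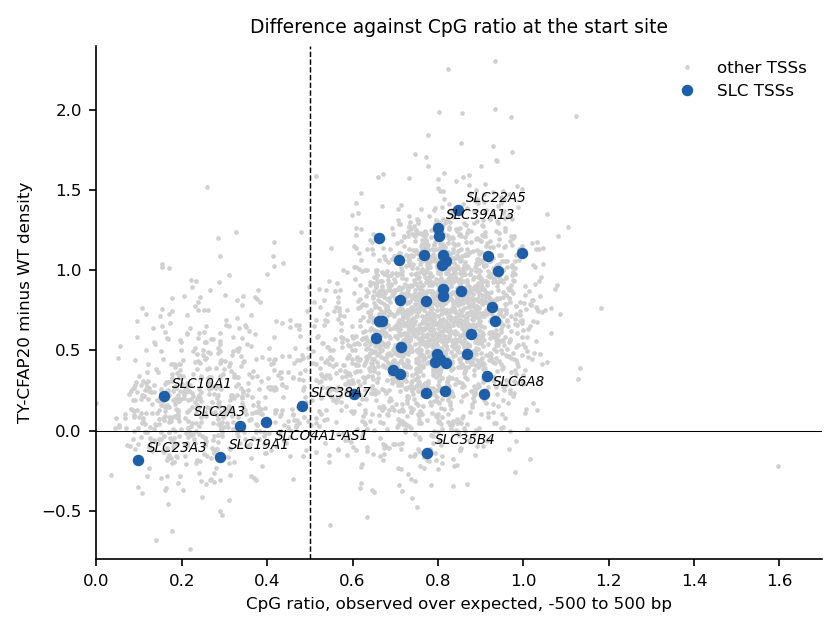
TY-CFAP20 minus WT density within 500 bp (y axis) against the CpG ratio of the same window (x axis) for the 43 SLC TSSs (blue) and the others (grey), with a dashed line at the ratio of 0.5. The 6 SLC TSSs left of the line lie between -0.184 and 0.215, while the others reach 1.38.

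Nascent transcription was compared with the difference. BrU-seq levels of SLC genes ran from 0.735 at SLC6A15 to 22.8 at SLC39A13, with a median of 2.41 against 2.55 over all TSSs. SLC37A4 (15.1) and SLC30A1 (14.9) came next after SLC39A13, and all of these had differences above 1. SLC2A3 (13.4) and SLC35F6 (13.2), named after their values were seen, had similar BrU-seq levels and differences of 0.03 and 0.448. When all TSSs were cut into 3 equal classes by BrU-seq, SLC members in the low, middle and high class numbered 15, 14 and 14. Their median differences were 0.380, 0.805 and 0.567, against 0.496, 0.578 and 0.659 over all TSSs. The order over all TSSs did not appear in SLC genes. The low and the high class held 3 CpG-poor members each and the middle class 0. Spearman's rho between BrU-seq and difference was 0.204 over the 43 members and 0.168 over all TSSs.

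**Figure D3:**
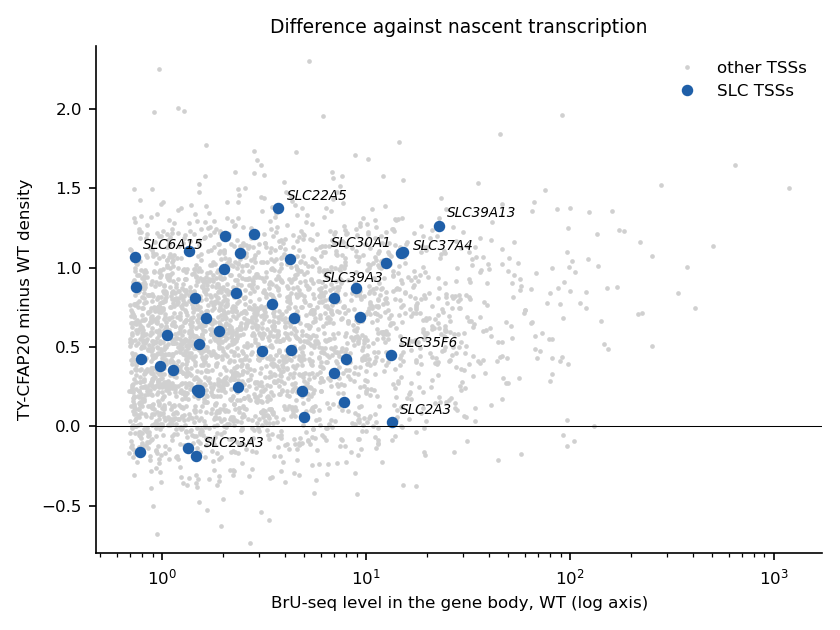
TY-CFAP20 minus WT density within 500 bp (y axis) against the BrU-seq level of the gene body in WT (x axis, log scale) for SLC TSSs (blue) and the others (grey). SLC6A15, with the lowest BrU-seq level, and SLC39A13, with the highest, both lie above 1.

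R-loops, in which nascent RNA pairs with the template DNA, were represented by a DRIP level (DNA-RNA immunoprecipitation) at each TSS. The SLC median was 658 and that of all TSSs 528, and 27 of the 43 members were above the latter. The highest were SLC6A8 (6214), SLC39A13 (3262) and SLC25A51 (2556), whose differences were 0.226, 1.27 and 1.09. Over the 43 members rho between DRIP and difference was -0.07, against 0.13 over all TSSs. Gene length, with an SLC median of 22.4 kb and a median of 18.3 kb over all, gave a rho of 0.00483 over SLC genes and 0.22 over all. Only SLC19A1 had a replication origin centre within 10 kb, 3.09 kb away (2.33% of members, against 6.57% of all TSSs), and 34 (79.1%, against 80.6%) had none within 50 kb. A start on the opposite strand lay within 1 kb of 7 members (16.3%, against 16.2%), among them TRMT5 beside SLC38A6 and HULC beside SLC35B3.

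The shape of the signal was followed along the 10 kb around the start. The mean SLC difference was highest at -40 bp, where it reached 0.831, and that of the other 2957 TSSs at -20 bp, where it reached 0.785. From -500 to -10 bp the SLC mean difference was 0.622 and that of the others 0.528. From 10 to 500 bp the values were 0.609 and 0.595. Further out, from 510 to 1000 bp, they were 0.319 and 0.325 downstream and 0.165 and 0.182 on the upstream side. SLC genes therefore differed from other genes little in shape. By these means the larger gap lay upstream of the start, but by medians it lay downstream. The median differences upstream were 0.514 over SLC TSSs and 0.504 over all TSSs, and downstream 0.657 and 0.583. The downstream value exceeded the upstream one at 21 of the 43 members (48.8%, against 54.7% of all TSSs).

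**Figure D4:**
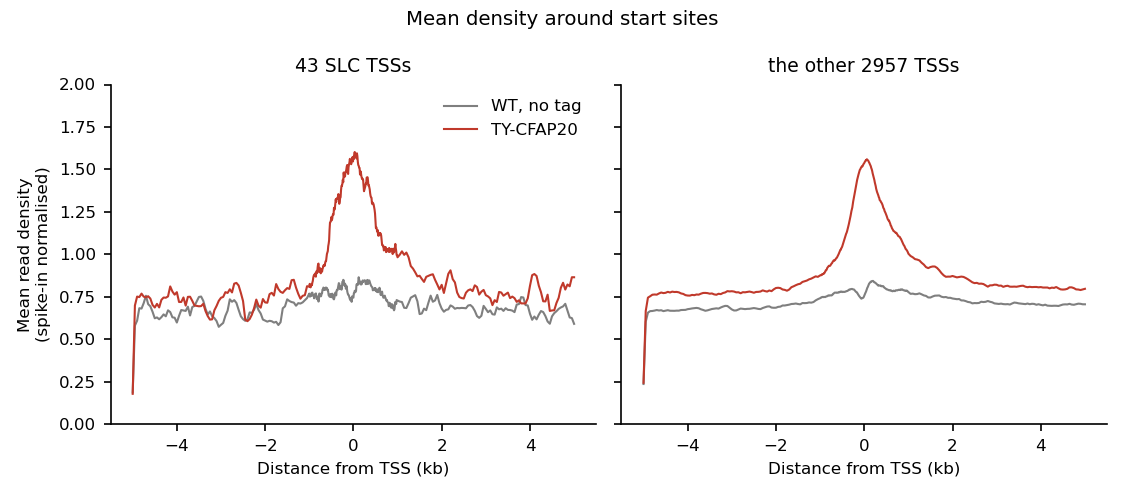
Mean spike-in normalised density (y axis) against distance from the TSS in kb (x axis) in WT (grey) and TY-CFAP20 (red) for the 43 SLC TSSs (left) and the other 2957 (right). Both TY-CFAP20 lines have a single summit over the TSS, at 1.60 for SLC genes, and the SLC lines are rougher, being means of fewer genes.

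Single members were less alike than the mean. SLC22A5 had a mean difference of 1.03 from -500 to -10 bp and 1.71 from 10 to 500 bp, whereas SLC39A13 had 1.86 upstream and 0.660 downstream. The following genes were picked after their values were seen. At SLC7A1 (1.42 upstream and 0.116 downstream) and SLC33A1 (1.26 and 0.09) nearly all of the difference lay upstream of the listed start. SLC2A10 showed the opposite, with 0.162 upstream and 0.991 downstream. Listed starts can be some way from the start in use. An annotated start of the same gene lay within 100 bp for 32 of the 43 (74.4%), against 86.1% of all TSSs. By position, 28 lay in an exon of their own gene, 3 in an intron and 12 outside it. The shares by position over all TSSs are not given here, so these counts have no background. Those of SLC7A1 and SLC39A13 coincided with an annotated start, and that of SLC2A10 lay 162 bp from the nearest one.

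In bins of 250 bp, the largest difference of SLC22A5 was centred 125 bp downstream (0.546 in WT and 2.90 in TY-CFAP20). For SLC39A13 and SLC35G1 it was centred at -125 bp, with bin differences of 2.86 and 2.18. In all 6 CpG-poor members the largest bin lay more than 1 kb from the start, against 74.3% of CpG-poor TSSs in the table. Over all 43 members this held for 12, against 35.7% of all TSSs. Most bins of the 10 kb lie that far out, so a TSS without a summit would often have its largest bin there. Beyond 1 kb downstream a bin also rests on fewer positions. At SLC19A1 the largest bin was centred 2625 bp downstream, with a difference of 1.29, and at SLC2A3 2875 bp downstream, with 1.71. A single bin rests on few fragments, and no replicate values show whether such bins recur.

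**Figure D5:**
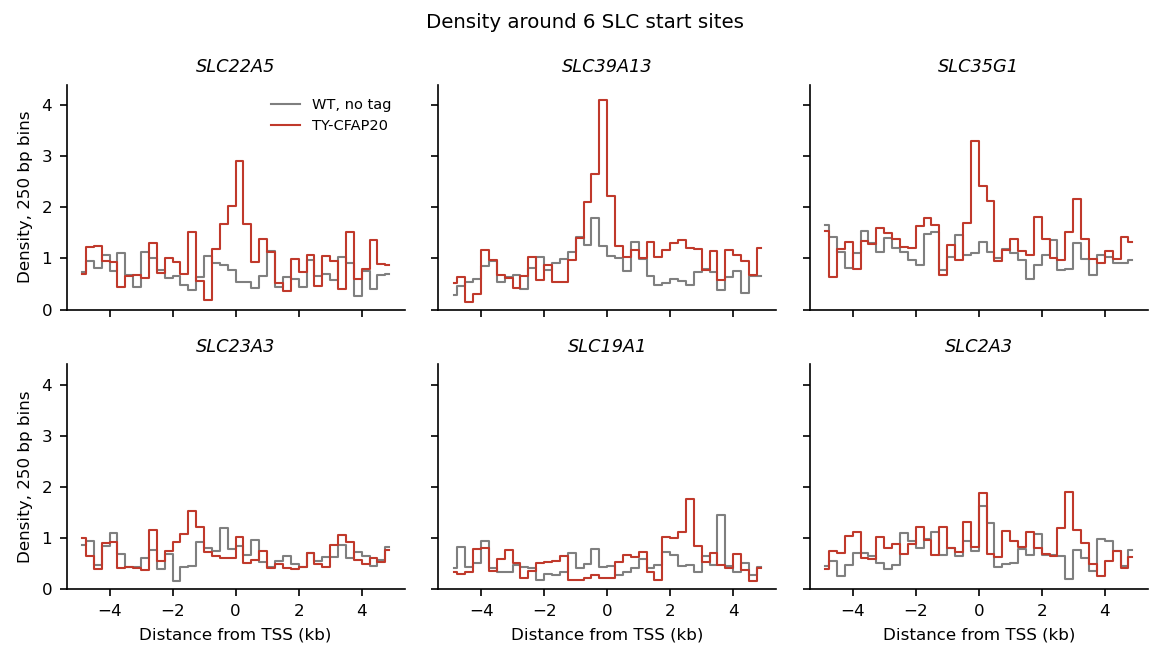
Density in bins of 250 bp (y axis) against distance from the TSS in kb (x axis) at the 3 SLC genes with the largest differences (top) and at 3 CpG-poor genes (bottom), in WT (grey) and TY-CFAP20 (red). The top genes have their tallest TY-CFAP20 bin within 250 bp of the start, while SLC23A3 and SLC19A1 have theirs more than 1 kb away.

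Short motifs were counted on both strands in the 300 bp promoters of all TSSs. The GC box GGGCGG, bound by SP and KLF factors, was present in 31 SLC promoters (72.1%, against 60.2% of all). The E-box CACGTG, bound by MYC/MAX and by MiT/TFE factors, was present in 9 (20.9%, against 9.13%), among them 4 genes of family 25, SLC25A33, SLC25A38, SLC25A46 and SLC25A51. The core of the metal response element, TGCGCNC, bound by MTF1, was present in 15 (34.9%, against 26.5%), including SLC39A3, SLC39A13 and SLC39A14 but not SLC30A1. The listed start of SLC30A1 lies in an exon, 419 bp from the nearest annotated start. The 300 bp searched there, in which a GC box was counted, did not reach that annotated start, so the sequence around it was not examined. This limit holds for other members too. At SLC39A3 the listed start lies outside the gene, 124 bp from the nearest annotated start, beyond the 49 bp searched downstream. CCAAT was present in 15 (34.9%, against 36.3%). TATAAA was in none of the 43, against 8.30% of all promoters. The C/EBP-ATF core TGATGNAA was in SLC7A1 and SLC23A3 (4.65%, against 2.53%). The GC box, the E-box and the metal response core contain CG, and their share by CpG content was not tested. Such matches describe letters and do not show binding.

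Genes that act beside SLC carriers, and transport genes without an SLC symbol, some of them carriers themselves, were described in the same way. Of 100 channels, pumps and carriers with other names in the TSS list, 21 had profiles, with a median difference of 0.773, and TY-CFAP20 exceeded WT at all 21, against 91.2% of all TSSs. Of these, 11 (52.4%, against 34.9%) passed 1.5-fold, and 4 were CpG-poor. With local scaling 17 of the 21 were above 0, against 87.6% of all TSSs, and KCNS1 was at -0.17. VDAC3, a pore of the outer mitochondrial membrane, was highest at 1.26 and the potassium channel subunit gene KCNS1 lowest at 0.03. The locally scaled median of these genes was 0.348, beside 0.344 for SLC genes. Of the accessory subunits and regulators of carriers, 5 had profiles, with a median difference of 0.461, and 1 passed 1.5-fold. TXNIP, which restrains glucose uptake, was highest at 0.812, and TFE3, a lysosomal gene regulator, lowest at 0.01. Of the genes of the amino acid starvation response, 8 had profiles, with a median of 0.563, and 3 passed 1.5-fold. PPP1R15A, a phosphatase subunit that restores translation, was highest at 1.13, and TRIB3, a pseudokinase, lowest at -0.15. With local scaling TRIB3 turned to 0.273, and CHAC1, named after its values were seen, was lowest at -0.14.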

How the data were processed

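Anti-TY ChIP-seq was measured in 3 WT and 3 TY-CFAP20 libraries. Per group, the authors deposited 1 table of signal (read density), averaged over replicates and normalised to the Drosophila spike-in, in 1001 positions 10 bp apart. The sources used here do not give the computation of the spike-in factor. Per the submitters' processing notes the tools included R 4.0.5, STAR 2.7.7a, HOMER 4.8.2, SAMtools 1.11, BWA 0.7.17 and Trim Galore 0.6.5, with no role stated. The authors also deposited BrU-seq signal and DRIP levels, whose scales are not stated in the sources used here, origin centres, and a ratio of CFAP20 to WT from an unnamed assay, which serves only the closing section. Columns that could not be matched to a group numbered 0.

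Density was averaged from -500 to 500 bp at each TSS. Beyond 1 kb downstream, positions 50 bp apart were used. Log2 ratios used a pseudocount of 0.668, which draws every ratio towards 1, most at TSSs of low density. Fragment numbers came from the smallest and largest step between neighbouring deposited values. Coordinates are hg38, 1-based, with GENCODE 44. The calculation was checked on simulated densities.

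The members, classes and lists were chosen with earlier results of these data known. Genes named by rule were the 6 largest and 4 smallest differences, the 3 highest log2 ratios, BrU-seq and DRIP levels, the extremes of each class and list, members near an origin, those beside 1.5-fold, and those changing sign under local scaling. Other members are given for completeness, and 1 gene that the rule takes is not reported here. Alternatives covered window, scaling, TSSs used, pseudocount and threshold. Scripts ran on Python 3.11.15 with matplotlib 3.10.9, scipy 1.17.1, pandas 2.3.3 and numpy 2.4.6.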

Additional observations from a re-analysis of the deposited data

Results flagged for a closer look

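A column of the authors' deposited table, which enters no comparison above, gives a ratio of CFAP20 to WT with a median of 1.38 over the 43 SLC TSSs, against 1.14 over the 2999 TSSs of the table with a value. It is given here because it is a signal outside the density profiles. A ratio above 1 was listed by the authors' deposited table for 32 of the 43 SLC TSSs (74.4%), against 62.0% of all. The highest SLC value of the authors' deposited table was 3.23 at SLC30A1 and the lowest 0.476 at SLC2A3. Across the 43 members the ratio of the authors' deposited table had a Spearman's rho of -0.17 with the ChIP-seq difference, against 0.17 over all TSSs, and SLC22A5, with the largest difference, had a ratio of 0.815 there. The assay behind this ratio is not named in its header, so no direction is read from it, and no replicate values are given.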

How the results depend on the processing

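No paired analysis was possible because the deposited values are averages over the replicates of each group, and leaving out replicates was not run for the same reason. With no replicate spread, a value was taken as moved when it moved by more than 1.5 times. The number of SLC TSSs at least 1.5-fold higher, 18 as reported, was 7 with a window of -1000 to 1000 bp, 10 from 0 to 1000 bp, 10 with flanks scaled to WT, 7 with local scaling, 0 with 4 times the pseudocount and 1 at 2-fold. Over all TSSs the same settings gave 14.2%, 23.9%, 18.3%, 17.5%, 0.2% and 1.77%. It was 25 with 0.25 times the pseudocount (57.7% of all TSSs) and 27 with none (66.0% of those with a WT density of at least 0.2). The SLC median difference moved to 0.344 with local scaling. The 2 scalings shift the median log2 ratio of all TSSs by -0.13. The gap between CpG-rich and CpG-poor members was 0.644 and moved to 0.371 from 0 to 1000 bp. The number of members higher in TY-CFAP20 stayed between 38 and 40 under every window and scaling run. Single genes that changed sign were SLC25A46 (-0.0967) and SLC9A8 (-0.0455) within 250 bp, SLC37A2 (-0.0741), SLC6A8 (-0.0131) and SLC19A1 (0.145) from 0 to 1000 bp, SLC2A3 (-0.118) and SLCO4A1-AS1 (-0.0184) with flanks scaled, and SLC35B4 (0.177), SLC2A3 (-0.0409) and SLC38A7 (-0.0673) with local scaling. In all, 28 of the 43 single-gene differences moved and 3 changed sign with local scaling, and 20 moved with the window of -1000 to 1000 bp. The class median of vitamin and cofactor carriers changed sign with flanks scaled (-0.0579) and with local scaling (-0.00241). The causes were not tested. The CpG grouping with its thresholds, and the alternatives for the BrU-seq correlation and the profile summit, were added after seeing the data. The mean WT density of SLC start sites stands for between 8.28 and 34.3 fragments per position, and low members and single bins rest on fewer.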
